A study of Mus musculus with 20 samples.

Results

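The cyclic AMP (cAMP) arm of 2 kinds of mouse T cell was followed through 9 genes: Crem, Creb1 and Atf1, which encode transcription factors of the CREB family, Prkar1a, which encodes a regulatory subunit of protein kinase A (PKA), and the cAMP phosphodiesterase genes Pde3b, Pde4a, Pde4b, Pde4d and Pde7a. They are 9 of the 23992 gene symbols listed in each of the 20 RNA-seq libraries, and each was represented by the transcript with most reads over all libraries. The genes were chosen by measured values of these libraries, since the rise of Crem in CD8+ T cells after 1.5 hr of cytokine drew attention to them. That rise is therefore given as a description. All 9 genes were detected in all 20 libraries.

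The libraries compared wild-type IL-2 with IL-2-REH, an IL-2 variant whose hold on the common gamma chain of the receptor is weakened and which acts as a partial agonist. Regulatory T cells (Tregs) were sorted by their green fluorescence from B6-Foxp3EGFP mice, in which a fluorescent reporter marks cells that use the Treg factor Foxp3, and CD8+ T cells, taken with an isolation kit, came from mice labelled C57BL/6N and described as C57BL/6J in the protocol. Cells of each kind were left unstimulated (0 hr) or were given 200 nM IL-2 or 200 nM IL-2-REH for 1.5 or 4 hr. Each of the 5 Treg groups had 3 libraries and each of the 5 CD8+ groups had 1. All cells were primary cells of spleen and lymph node, and the sources used here give no age. They do not say that the numbered replicates came from separate animals, so p-values measure the spread between these libraries, which may be partly technical. No culture without cytokine was taken at 1.5 or 4 hr, so cytokine and time in culture cannot be told apart in any comparison with unstimulated cells. The CD8+ T cell group had 1 library per condition and no replicate check.

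Total reads assigned to transcripts ran from 20201392 to 63903764 in the Treg libraries and from 38201668 to 45189835 in the CD8+ libraries. Summed over 6 Treg markers, Treg libraries held 810.1 to 1492 RPKM (reads per kilobase of transcript, scaled to library size) and CD8+ libraries 37.4 to 93.0, and the pair of CD8 chains summed to 4.46 to 12.7 in Tregs and 282 to 728 in CD8+ T cells. The library labelled unstimulated Treg replicate 1 stood apart from its group. Across genes its log2 values correlated at 0.903 and 0.909 with the other unstimulated libraries, against 0.977 between those 2, and best, at 0.981, with the IL-2-REH 1.5 hr library of the same replicate number. Its Foxp3 level, 67.0 RPKM, lay between the 65.2 and 92.8 of the other 2. The 6 Treg markers together did not, at 1189 RPKM against 852.1 and 810.1. Il2ra, at 62.7 against 117.3 and 91.5 RPKM, and Cd4, at 128.8 against 168.4 and 148.2 RPKM, lay below both. In the stimulated replicate 1 libraries Foxp3 stood at 113.4 to 251.8 RPKM and Il2ra at 120.5 to 197.0, all above unstimulated replicate 1. The 6 markers together stood there at 1014 to 1492 RPKM, a range that took in its 1189. By its correlations the library goes against its label, while its Foxp3 and Il2ra lay below the stimulated libraries of its number. The label is kept below, and every fold over unstimulated Tregs rests on that label where the library is included. The members' comparisons with unstimulated Tregs are therefore given with and without it. The reason why it stood apart, and whether its label is right, were not tested. Genes of red cells were high in the replicate 3 Treg libraries, at 132.0 to 230.8 RPKM summed over 6 markers, with no other library above 20.5. Macrophage, NK and B cell markers differed by replicate number, and in replicates 2 and 3 were highest unstimulated. Macrophage markers summed to 7.38 to 13.3 RPKM in the 5 replicate 1 libraries, the unstimulated one being the highest of them, and in replicates 2 and 3 to 54.5 and 48.2 unstimulated and 19.6 to 32.8 stimulated. NK cell markers were at 0.0174 to 0.294 in replicate 1, and in replicates 2 and 3 at 6.46 and 3.67 unstimulated and 1.12 to 4.25 stimulated. B cell markers were at 2.16 to 4.34 in replicate 1, and in replicates 2 and 3 at 9.80 and 19.7 unstimulated and 3.13 to 18.5 stimulated. The part of any of these marker sets in the results below was not tested.

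cAMP is made by adenylyl cyclases, binds the regulatory subunits of PKA and so frees the catalytic subunits, which phosphorylate CREB, ATF1 and CREM at their shared DNA element, the cAMP response element (CRE). The Crem gene can also be read from an internal start that gives short products known as ICER, which keep the DNA-binding end of the protein without its activation domain and act as repressors. Phosphodiesterases end the signal by hydrolysing cAMP, and in Tregs, which are known to hold high cAMP and to repress Pde3b through Foxp3, the balance of these enzymes has drawn particular interest.

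Short stretches of promoter that hold a CRE, its core alone or letters bound by STAT factors are shown first. The CRE is the element the CREB family binds. RefSeq promoter windows of 300 bases, from 250 bases before to 50 bases after each listed start (build GRCm38.p6), were at hand for 6 of the 9 genes in 16 windows. The full CRE, TGACGTCA, which reads the same on both strands, was found in 588 of all 32851 windows, or 1.79%, and among these 6 genes in Prkar1a alone, at chr11:109650900-109650907, in 2 overlapping windows. Its core TGACG, searched on both strands and contained in the full CRE, lay in 20.8% of all windows and in 6 of these 16, which belong to 4 of the 6 genes, namely Prkar1a, Pde4a, Pde4b and Atf1. The Pde4a core lies at a listed start at 21184101, where the gene begins at 21165700. The Pde4b core lies at a listed start at 102421555, and the Pde4b transcript measured here has its first exon from 102570095. The letters TTCNNNGAA, which STAT factors downstream of cytokine receptors bind, lay in 8.3% of all windows and among these genes in 1 window of Pde4b. The stretches below are of 30 bases on the forward strand, with the matched letters in capitals, and a match is a description of the sequence and not a site shown to be bound.
Prkar1a, chr11:109650889-109650918, full CRE 49 bases before a listed start: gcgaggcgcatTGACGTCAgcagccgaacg
Pde4a, chr9:21184039-21184068, core on the opposite strand: ggcacagctcgaCGTCAggctggggaggag
Pde4b, chr4:102421509-102421538, core on the opposite strand, within an annotated exon: gatttggctgcaCGTCAattttctcatctg
Pde4b, chr4:102569900-102569929, STAT letters 150 bases before a listed start: ctttgagaatTTCCCAGAAagcaataaata
Atf1, chr15:100227757-100227786, core 90 bases before the listed start: gtgaccacgcggTGACGcagcacgccggcg
Crem, Pde3b and Pde7a had no window in the table used.

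Crem, on the reverse strand of chromosome 18 from 3266354 to 3337773, was the member whose level moved most. In unstimulated Tregs it stood at 229 RPKM in replicate 1 but at 7.01 and 7.34 RPKM in replicates 2 and 3. After 1.5 hr it was at 200.0, 190.2 and 165.5 RPKM with IL-2 and at 196, 171 and 154 RPKM with IL-2-REH. After 4 hr it was at 98.7, 114 and 73.1 RPKM with IL-2 and at 100.2, 97.4 and 85.3 RPKM with IL-2-REH. Every stimulated Treg library thus lay above unstimulated replicates 2 and 3, every 1.5 hr library lay above every 4 hr library, and the ranges of the 2 cytokines overlapped at both times. Unstimulated replicate 1 lay above all 12 stimulated libraries. CD8+ T cells held far less, and Crem went there from 2.12 RPKM unstimulated to 25.9 RPKM with IL-2 and 18.5 RPKM with IL-2-REH at 1.5 hr, and to 10.5 and 5.31 RPKM at 4 hr. The CD8+ values followed the same order of times as the Treg libraries, at lower levels.

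**Figure D1:**
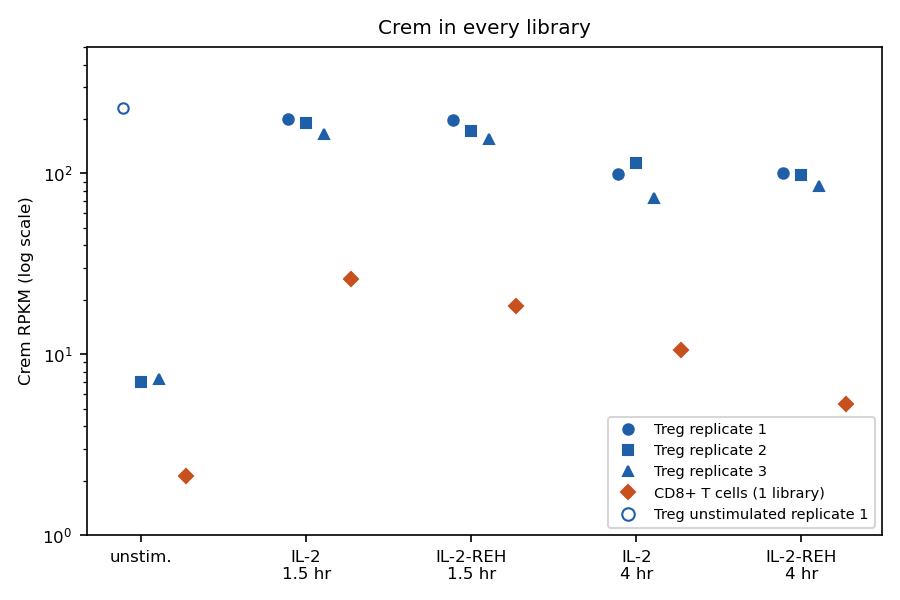
RPKM of Crem (log scale) in each of the 20 libraries, by cell type and condition, with 1 symbol per library. The stimulated Treg libraries sit between 73.1 and 200.0 RPKM, 2 of 3 unstimulated Treg libraries at 7.01 and 7.34, and the CD8+ libraries between 2.12 and 25.9.

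Ordered by group median, the levels of Crem ran from Tregs given IL-2 or IL-2-REH for 1.5 hr, through Tregs given either for 4 hr, to CD8+ T cells given IL-2 for 1.5 hr, IL-2-REH for 1.5 hr and IL-2 for 4 hr, then unstimulated Tregs, and last CD8+ T cells given IL-2-REH for 4 hr and unstimulated CD8+ T cells. Among the stimulated Treg groups, the neighbours IL-2 and IL-2-REH did not differ beyond their spread at either time. The CD8+ groups were single libraries with no spread to set against their neighbours. Unstimulated Tregs ran from 7.01 to 229 RPKM, a range that took in their neighbour, CD8+ T cells given IL-2 for 4 hr, at 10.5 RPKM. The place of unstimulated Tregs rests on replicates 2 and 3, since replicate 1 alone would put the group first. In bulk samples, fewer cells of a type and less RNA per cell cannot be told apart, and this holds for each level given here.

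edgeR's quasi-likelihood test with Benjamini-Hochberg adjustment over 14992 genes was fitted to all 15 Treg libraries. With all of them, Crem did not pass it. Its log2 fold change over unstimulated was 1.18 (SE 0.93, adjusted p = 0.607) with IL-2 and 1.08 (SE 0.93, adjusted p = 0.667) with IL-2-REH at 1.5 hr, and 0.14 (adjusted p = 0.952) and 0.07 (adjusted p = 0.981) at 4 hr. Without unstimulated replicate 1, Crem rose with IL-2 29.9-fold at 1.5 hr (log2 4.90, SE 0.22, adjusted p = 1.33e-07) and 14.5-fold at 4 hr (log2 3.86, SE 0.21, adjusted p = 1.34e-06). With IL-2-REH it rose 27.9-fold at 1.5 hr (log2 4.80, SE 0.22, adjusted p = 1.61e-07) and 13.8-fold at 4 hr (log2 3.79, SE 0.20, adjusted p = 1.61e-06). The unstimulated mean of this fit rests on 2 libraries at 7.17 ± 0.232 RPKM (SD, n = 2), and the 4 comparisons share it. From 1.5 to 4 hr Crem fell by 1.05 on the log2 scale with IL-2 (SE 0.16, adjusted p = 0.0246) and by 1.01 with IL-2-REH (SE 0.16, adjusted p = 0.0328) in the fit without that library. With all libraries the differences were of the same size, at -1.04 and -1.01, and their SE of 0.93 gave adjusted p of 0.570 and 0.626. The fit takes 1 spread per gene over all 5 groups. That SE therefore includes the spread of the unstimulated libraries, which are not part of these differences.

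The files list 16 Crem transcripts. Of them, 2 that cover 5′ exons and stop before the 3′ end, NM_001110851 and NM_001110852, took in 1.1% and 0.976% of the reads of the transcript with most, and the others took in at least 61.0%. Transcripts with common exons share reads, so their counts overlap and their ratios are descriptions. One of them, NM_001110854, starts inside the gene, as ICER transcripts do, with a first exon at chr18:3281688-3281738 that is absent from the long transcript NM_001110856. The short transcript's exons took in 93.8% and 94.5% of the reads counted for the long one in unstimulated Treg replicates 3 and 2, 99.4% in unstimulated replicate 1, and 99.1 to 99.8% in stimulated Tregs. CD8+ T cells had a share of 83.2% unstimulated, 98.4% with either cytokine at 1.5 hr, and 97.8% with IL-2 and 94.1% after IL-2-REH at 4 hr. The share was thus high wherever Crem was high.

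A transcript covering 5′ exons of the gene and not its 3′ end, NM_001110852, gave a level for the upstream part that is mixed with intron sequence. Its last exon has 999 bases where the long transcript's exon has 143, and the rest is intron in the long transcript. It had 23 to 334 reads per library, and stood at 0.923 and 0.880 RPKM in unstimulated Treg replicates 2 and 3, at 3.35 in unstimulated replicate 1, at 2.24 to 3.21 in the 1.5 hr Treg libraries and at 0.483 to 2.50 in the 4 hr ones. In CD8+ T cells it was 0.712 RPKM unstimulated and 0.829, 0.714, 0.543 and 0.604 RPKM after IL-2 1.5 hr, IL-2-REH 1.5 hr, IL-2 4 hr and IL-2-REH 4 hr. The level of this 5′ transcript in CD8+ T cells thus stayed between 0.543 and 0.829 RPKM. Over the exons of the short transcript the level went from 2.23 to 32.3 RPKM with IL-2 and to 23.0 RPKM with IL-2-REH at 1.5 hr. Beyond a first exon of 51 bases these are also exons of the long transcript, so their level is not that of the internally started form alone. The ratios that follow carry both limits. The ratio of the short transcript's RPKM to that of the 5′ transcript was 9.09 and 9.91 in unstimulated Treg replicates 2 and 3, 86.1 in replicate 1, 74.5 to 113 at 1.5 hr and 57.1 to 191 at 4 hr. In CD8+ T cells the ratio was 3.13 unstimulated, 39.0 and 32.2 at 1.5 hr with IL-2 and IL-2-REH, and 24.0 and 10.5 at 4 hr. An exon of the predicted gene Gm6225, on the opposite strand, overlaps Crem, and since the use of strand in counting is not given in the sources used here, reads of the 2 cannot be told apart there.

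**Figure D2:**
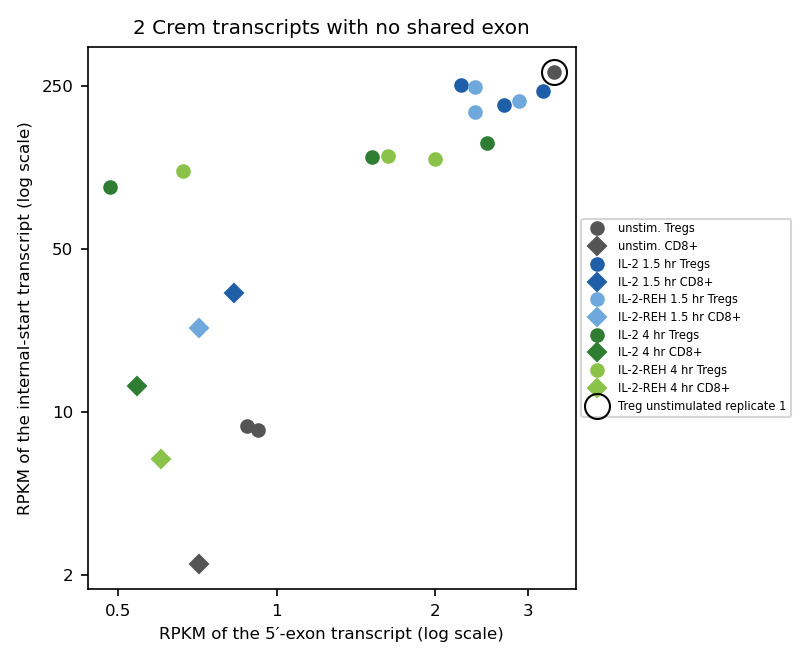
RPKM of the internally started Crem transcript and of the 5′ Crem transcript in each library (log scale). The short transcript spans 2.23 to 289 RPKM and the 5′ transcript 0.483 to 3.35.

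Over the 20 libraries, the genes whose log2 level was most like that of Crem, out of 10458 genes with a mean of at least 1 RPKM, were Dgat1 (Pearson's r = 0.977), Map2k3 (0.975), Ndrg1 (0.964), Ramp3 (0.962) and Phlpp1 (0.960). With the mean of each cell type removed, the same 5 genes had r of 0.954, 0.952, 0.930, 0.931 and 0.956. Among the members, r with Crem was 0.909 for Pde4a, 0.835 for Prkar1a, 0.827 for Pde4d, 0.458 for Pde4b, 0.205 for Atf1, -0.188 for Pde7a, -0.432 for Creb1 and -0.518 for Pde3b. Within cell types Pde3b and Pde7a had r of 0.298 and 0.570, so their negative values were not seen within cell types. The points share cell type, condition and replicate number, and the values are descriptions over 20 libraries.

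Creb1 and Atf1, the genes of the constitutive activators that share the CRE with CREM, showed small differences. Creb1 stood at 7.74, 16.8 and 13.5 RPKM in the 3 unstimulated Treg libraries, at 10.3, 11.1 and 10.05 RPKM after 1.5 hr of IL-2 and at 8.06, 11.02 and 5.15 RPKM after 4 hr of IL-2. With IL-2-REH it stood at 10.5, 12.6 and 9.57 RPKM at 1.5 hr and at 8.64, 13.0 and 7.04 RPKM at 4 hr. The stimulated libraries overlapped the unstimulated ones, and for Creb1 unstimulated replicate 1 was the lowest of its group where for Crem it was the highest. The log2 fold changes of Creb1 at 1.5 hr were -0.10 for IL-2 and -0.04 for IL-2-REH (adjusted p = 0.925 and 0.970), and without unstimulated replicate 1 -0.29 and -0.24 (adjusted p = 0.476 and 0.564). Its value at 4 hr was -0.58 with IL-2 (SE 0.26, adjusted p = 0.266) and -0.39 with IL-2-REH (SE 0.26, adjusted p = 0.560), and without unstimulated replicate 1 it was -0.78 (adjusted p = 0.0761) and -0.59 (adjusted p = 0.180). With the replicate number as a block and without that library, Creb1 fell by 0.75 with IL-2 at 4 hr (adjusted p = 0.0224). CD8+ libraries held Creb1 at 11.4 RPKM unstimulated, 9.14 and 9.85 RPKM at 1.5 hr with IL-2 and IL-2-REH, and 10.02 and 15.5 RPKM at 4 hr. Atf1 lay between 21.7 and 26.2 RPKM in unstimulated Tregs, between 21.8 and 25.1 at 1.5 hr, between 14.6 and 22.2 at 4 hr and between 16.7 and 20.7 in CD8+ T cells. No log2 fold change of Atf1 over unstimulated Tregs exceeded 0.35 in size with all libraries, and none passed the test (adjusted p from 0.375 to 0.926). Leaving out unstimulated replicate 1, they ran from -0.32 to 0.18 (adjusted p from 0.275 to 0.791).

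Prkar1a, on chromosome 11 from 109649023 to 109669663, encodes the type I alpha regulatory subunit, which holds the catalytic subunits of PKA inactive until cAMP binds. It stood at 180.4, 94.6 and 85.4 RPKM in unstimulated Tregs, and it holds the full CRE shown above, which lies inside the gene, downstream of the start of the transcript measured here. The window at that transcript's own start holds no CRE. After 1.5 hr it stood at 162.5, 138 and 155 RPKM with IL-2 and at 169, 151 and 172 RPKM with IL-2-REH. After 4 hr it stood at 123, 134 and 131 RPKM with IL-2 and at 133, 141 and 103 RPKM with IL-2-REH. All 12 stimulated libraries lay above unstimulated replicates 2 and 3 and below replicate 1. With all libraries the log2 fold changes were 0.44 (SE 0.29, adjusted p = 0.531) and 0.55 (SE 0.29, adjusted p = 0.479) at 1.5 hr for IL-2 and IL-2-REH, and 0.14 and 0.02 at 4 hr (adjusted p = 0.840 and 0.988). Without unstimulated replicate 1, Prkar1a rose 1.98-fold with IL-2 (log2 0.99, SE 0.19, adjusted p = 0.00612) and 2.14-fold with IL-2-REH (log2 1.10, SE 0.20, adjusted p = 0.00367) at 1.5 hr, and 1.60-fold with IL-2 at 4 hr (log2 0.68, SE 0.19, adjusted p = 0.0458). With IL-2-REH at 4 hr it was 0.56 higher (SE 0.19, adjusted p = 0.0999; with the replicate block 0.59, adjusted p = 0.0365). The CD8+ level of Prkar1a went from 85.0 RPKM to 149 and 146 RPKM at 1.5 hr with IL-2 and IL-2-REH, and was at 101 and 96.2 RPKM at 4 hr.

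The PDE4 genes encode cAMP-specific enzymes that are the targets of drugs such as roflumilast. Pde4d, on chromosome 13 from 108654177 to 109955969, stood at 30.5, 9.53 and 8.35 RPKM in unstimulated Tregs. After 1.5 hr it stood at 23.1, 26.1 and 26.9 RPKM with IL-2 and at 25.8, 28.8 and 30.02 RPKM with IL-2-REH, and after 4 hr at 17.2, 20.9 and 14.1 RPKM with IL-2 and at 19.4, 24.6 and 17.7 RPKM with IL-2-REH. As for Crem, all stimulated libraries lay above unstimulated replicates 2 and 3 and below replicate 1. With all libraries no log2 fold change of Pde4d over unstimulated passed (0.73 with IL-2 and 0.88 after IL-2-REH at 1.5 hr, SE 0.42, adjusted p = 0.464 and 0.448). Without replicate 1 it rose 3.36-fold with IL-2 (log2 1.75, SE 0.23, adjusted p = 0.000515) and 3.72-fold with IL-2-REH (log2 1.90, SE 0.23, adjusted p = 0.00036) at 1.5 hr. At 4 hr its log2 fold changes were 0.09 with IL-2 (adjusted p = 0.932) and 0.27 with IL-2-REH (adjusted p = 0.837) with all libraries. Without replicate 1 it rose at 4 hr by 2.14-fold with IL-2 (adjusted p = 0.00977) and 2.42-fold with IL-2-REH (adjusted p = 0.00643). CD8+ libraries held Pde4d at 9.04 RPKM unstimulated, 19.8 and 24.2 RPKM at 1.5 hr with IL-2 and IL-2-REH, and 8.85 and 16.1 RPKM at 4 hr.

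Pde4b is a PDE4 gene of leukocytes. It stood at 32.4, 18.0 and 19.9 RPKM in unstimulated Tregs, at 31.01, 52.0 and 55.9 RPKM after IL-2 and at 30.7, 50.6 and 56.2 RPKM after IL-2-REH for 1.5 hr. At 4 hr it stood at 14.2, 32.8 and 21.9 RPKM with IL-2 and at 17.4, 38.6 and 26.6 RPKM with IL-2-REH. Replicate 1 was thus the lowest library of every stimulated group and the highest of the unstimulated one. The log2 fold change at 1.5 hr was 1.12 with IL-2 (SE 0.42, adjusted p = 0.262) and 1.10 with IL-2-REH (SE 0.42, adjusted p = 0.399) with all libraries. Without unstimulated replicate 1, Pde4b rose 2.92-fold (log2 1.55, SE 0.46, adjusted p = 0.0409) and 2.88-fold (log2 1.52, SE 0.45, adjusted p = 0.0449). At 4 hr the values with all libraries were -0.02 with IL-2 (adjusted p = 0.983) and 0.18 with IL-2-REH (adjusted p = 0.901). Without that library they were 0.39 with IL-2 (adjusted p = 0.580) and 0.59 with IL-2-REH (adjusted p = 0.417), and with the replicate block they were 0.67 (adjusted p = 0.0273) and 0.88 (adjusted p = 0.00915). The transcript that marks the 5′ end of one long Pde4b form had 0 to 12 reads per library. The CD8+ level of Pde4b, by the transcript with most reads, was 22.7 RPKM unstimulated, 34 and 35.0 RPKM at 1.5 hr with IL-2 and IL-2-REH, and 19.5 and 32.5 RPKM at 4 hr.

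Pde4a was the least abundant member, at 2.74, 0.722 and 0.502 RPKM in unstimulated Tregs. It stood at 1.63, 1.40 and 1.47 RPKM after 1.5 hr and at 1.15, 1.09 and 1.09 RPKM after 4 hr of IL-2. With IL-2-REH it stood at 1.58, 2.11 and 1.83 RPKM at 1.5 hr and at 1.19, 1.75 and 1.71 RPKM at 4 hr. All stimulated libraries again lay between unstimulated replicates 2 and 3 below and replicate 1 above. Its log2 fold changes with all libraries were 0.24 with IL-2 and 0.55 after IL-2-REH at 1.5 hr (SE 0.50, adjusted p = 0.891 and 0.691), and without unstimulated replicate 1 it rose 2.89-fold (log2 1.53, SE 0.26, adjusted p = 0.00289) and 3.58-fold (log2 1.84, SE 0.27, adjusted p = 0.0012). At 4 hr the log2 fold changes of Pde4a with all libraries were -0.26 with IL-2 (adjusted p = 0.825) and 0.15 with IL-2-REH (adjusted p = 0.931), and without that library it rose 2.04-fold with IL-2 (adjusted p = 0.0289) and 2.71-fold with IL-2-REH (adjusted p = 0.00824). In CD8+ T cells it was at 0.203 RPKM unstimulated, 0.628 and 0.521 RPKM at 1.5 hr with IL-2 and IL-2-REH, and 0.203 and 0.282 RPKM at 4 hr, from 58 to 203 reads.

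Pde7a encodes a cAMP-specific enzyme found in T cells. In unstimulated Tregs it stood at 12.4, 7.70 and 5.16 RPKM. After 1.5 hr it stood at 12.4, 14.1 and 12.3 RPKM with IL-2 and at 11.95, 16.0 and 12.9 RPKM with IL-2-REH, and after 4 hr at 7.78, 13.7 and 4.96 RPKM with IL-2 and at 8.59, 17.8 and 8.94 RPKM with IL-2-REH. The 1.5 hr libraries all lay above unstimulated replicates 2 and 3, while 1 of the IL-2 4 hr libraries lay below both. The 1.5 hr log2 fold change was 0.73 with IL-2 (SE 0.38, adjusted p = 0.405) and 0.81 with IL-2-REH (SE 0.38, adjusted p = 0.439). Without unstimulated replicate 1 it rose 2.39-fold with IL-2 (adjusted p = 0.0359) and 2.52-fold with IL-2-REH (adjusted p = 0.0290) at 1.5 hr. At 4 hr its values with all libraries were 0.06 with IL-2 (adjusted p = 0.949) and 0.43 with IL-2-REH (adjusted p = 0.675). Without that library they were 0.58 with IL-2 (adjusted p = 0.294) and 0.95 with IL-2-REH (adjusted p = 0.129; with the replicate block 1.03, adjusted p = 0.0116). CD8+ libraries held Pde7a at 18.8 RPKM unstimulated, 21.4 and 31.2 RPKM at 1.5 hr with IL-2 and IL-2-REH, and 14.1 and 30.02 RPKM at 4 hr. An exon of the predicted gene Gm16093 overlaps Pde7a on the opposite strand.

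Pde3b encodes an enzyme that hydrolyses cAMP and is inhibited by cyclic GMP, and it is a gene that Foxp3 is known to repress. Among the members it had the widest spread between replicates of stimulated Tregs relative to its mean level, though not in RPKM. It stood at 2.28, 3.82 and 1.90 RPKM in unstimulated Tregs, at 2.24, 10.5 and 7.03 RPKM after IL-2 and at 2.405, 10.7 and 6.55 RPKM after IL-2-REH for 1.5 hr. At 4 hr it stood at 1.12, 8.58 and 3.57 RPKM with IL-2 and at 1.48, 9.51 and 2.60 RPKM with IL-2-REH. Replicate 1 was the lowest in every stimulated group and replicate 2 the highest in every group. The log2 fold change at 1.5 hr was 1.53 with IL-2 (SE 0.79, adjusted p = 0.410) and 1.51 with IL-2-REH (SE 0.79, adjusted p = 0.478), and without unstimulated replicate 1 it was 1.52 (SE 0.95, adjusted p = 0.322) and 1.50 (SE 0.95, adjusted p = 0.340). At 4 hr the values were 0.77 and 0.74 with all libraries (adjusted p = 0.648 and 0.743) and 0.76 and 0.73 without that library (adjusted p = 0.618 and 0.655). With the replicate number as a block and without that library, Pde3b rose by 1.96 on the log2 scale with either cytokine at 1.5 hr (SE 0.25, adjusted p = 0.000193 with IL-2 and 0.000211 after IL-2-REH) and by 1.12 at 4 hr (adjusted p = 0.00780 and 0.00996). CD8+ libraries held Pde3b at 23.9 RPKM unstimulated, 52.7 and 61.9 RPKM at 1.5 hr with IL-2 and IL-2-REH, and 41.2 and 63.6 RPKM at 4 hr.

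**Figure D3:**
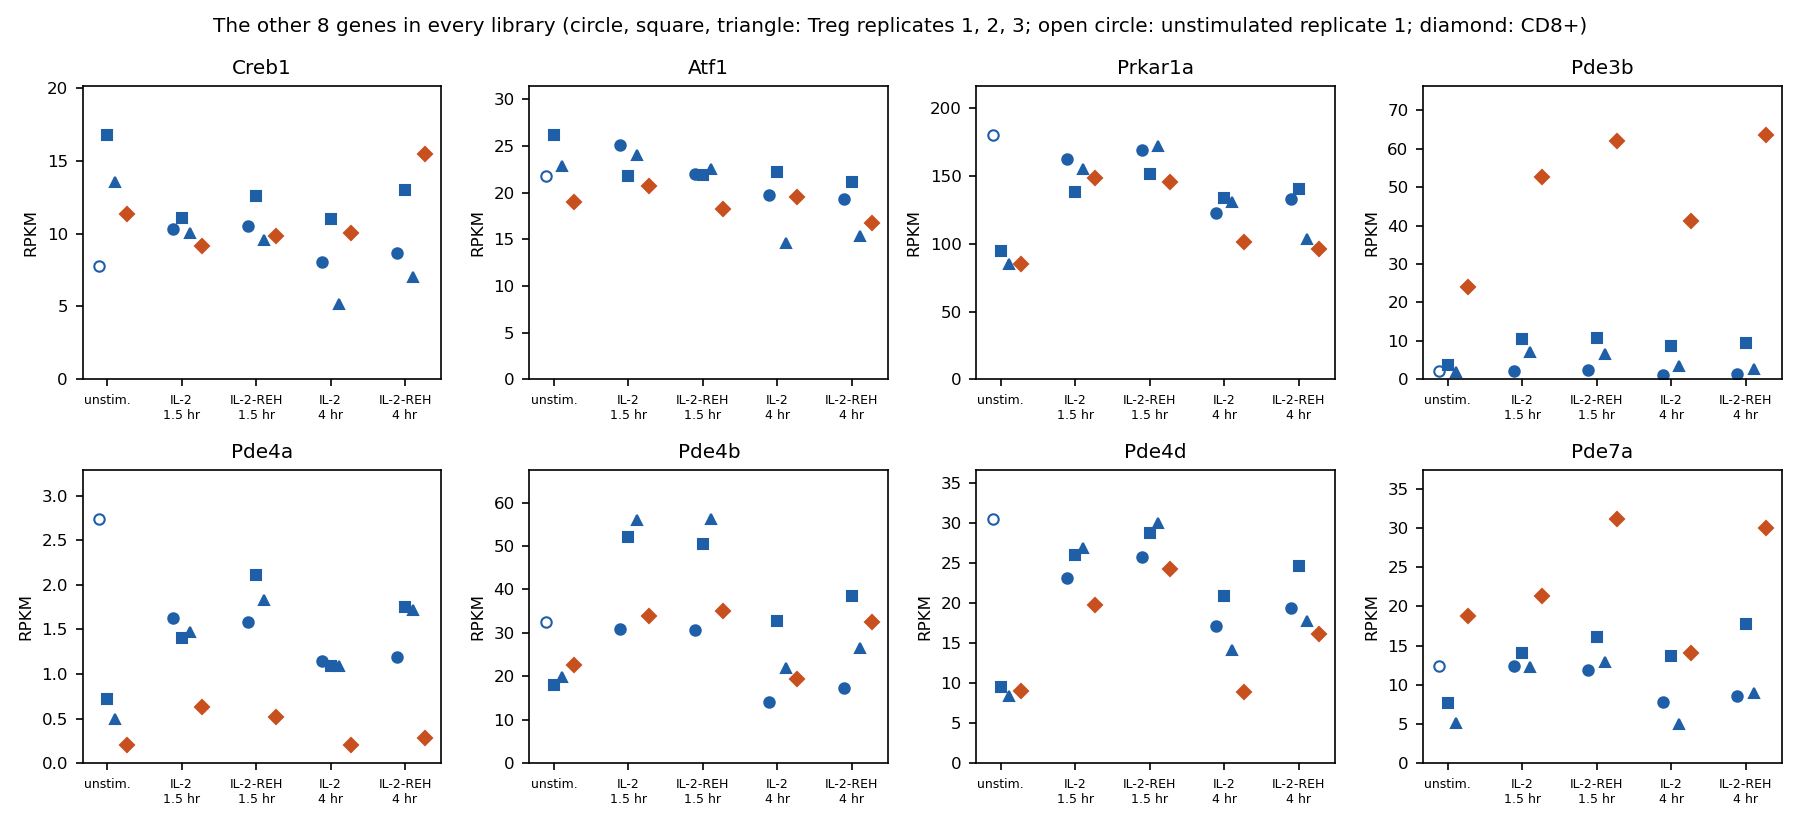
RPKM of the other 8 genes in each library, by cell type and condition, on linear axes that start at 0, with the open circle for unstimulated Treg replicate 1. Prkar1a, Pde4a and Pde4d show that library above all stimulated ones, while every CD8+ library of Pde3b, from 23.9 to 63.6 RPKM, sits above every Treg library.

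Counted over the members, 0 of 9 passed edgeR's test in the fit to all 15 Treg libraries, in any of the 4 comparisons with unstimulated cells. Of all genes tested, 0.854% passed with IL-2 at 1.5 hr, 2.26% with IL-2 at 4 hr, 0.0934% with IL-2-REH at 1.5 hr and 0.314% with IL-2-REH at 4 hr. In that fit the members' log2 fold changes at 4 hr ran from -0.58 (Creb1) to 0.77 (Pde3b) with IL-2, and from -0.39 (Creb1) to 0.74 (Pde3b) with IL-2-REH. At an unadjusted p under 0.05 the members numbered 1, 1, 2 and 1 in that order, where 13.8%, 17.7%, 11.4% and 13.3% of all genes had such a p. DESeq2 called 0 of the 8 members to which it gave an adjusted p, Crem having none, and gave 1, 1, 3 and 1 members an unadjusted p under 0.05, against 12.2%, 15.2%, 10.2% and 11.6% of the 20170 genes with a p. Of the 20231 genes in its fit it called 553, 1028, 109 and 582. The fit with a replicate block called 0 members as well, against 1.83%, 6.94%, 0.213% and 3.03% of all genes. Without unstimulated replicate 1, 6 members were called higher with either cytokine at 1.5 hr (Crem, Prkar1a, Pde4a, Pde4b, Pde4d and Pde7a), against 7.09% of 15494 genes called higher with IL-2 and 6.95% after IL-2-REH. At 4 hr, 4 members were called higher with IL-2 (Crem, Prkar1a, Pde4a and Pde4d), against 4.28% of all genes, and 3 with IL-2-REH (Crem, Pde4a and Pde4d), against 3.3%. With the replicate block as well, 7 members were called higher with either cytokine at 1.5 hr and with IL-2-REH at 4 hr, and 6 higher and 1 lower with IL-2 at 4 hr. In that fit 13.9% of all genes were called higher with IL-2 and 13.4% after IL-2-REH at 1.5 hr, 8.04% with IL-2-REH at 4 hr, and with IL-2 at 4 hr 10.4% were called higher and 10.5% lower. The member called lower was Creb1. Without replicate 1 in all 5 groups, members called higher numbered 7 with IL-2 and 6 after IL-2-REH at 1.5 hr, where 9.08% and 8.73% of 14478 genes were called higher, and 3 with either at 4 hr, where 6.78% and 5.08% were. Without replicate 2 or replicate 3 in all groups 0 members were called. The share of all genes called in those 2 fits is not given here, so nothing about the members is read from that 0. Over all the fits that left out libraries, the fewest genes called were 0, 3, 0 and 0, in the order of the first shares above.

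**Figure D4:**
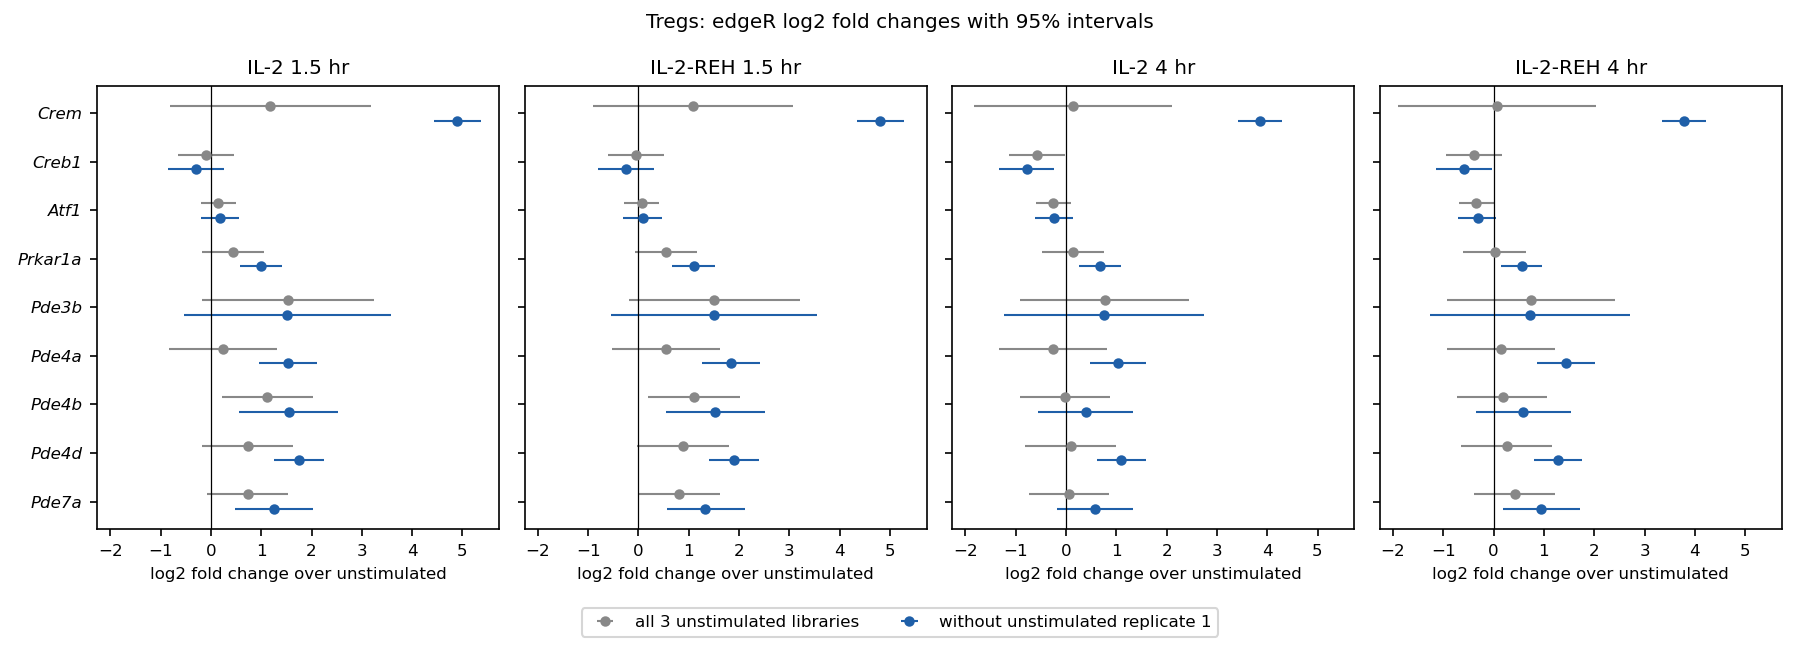
edgeR log2 fold change over unstimulated Tregs with its 95% interval for the 9 genes, for each cytokine and time, with all libraries (grey) and without unstimulated replicate 1 (blue). For Crem the value with IL-2 at 1.5 hr is 1.18 with all libraries and 4.90 without that library. The paired intervals of Creb1 and Atf1 overlap in every panel, and so do those of Pde3b and Pde4b. Overlaps of the remaining genes are not listed here. The 2 fits share all libraries but 1, so overlap is no measure of agreement.

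Between 1.5 and 4 hr of the same cytokine, 0 of 9 members passed with all libraries, where 0.0% of all genes passed for either cytokine. With the replicate block 0 passed, against 0.387% and 0.04%. Unadjusted p was under 0.05 for 2 members with either cytokine by edgeR, where 17.0% and 14.6% of all genes had such a p with IL-2 and IL-2-REH, and for 2 by DESeq2, where 14.8% and 12.8% did. Those by edgeR, a share of the members near that of all genes, were Atf1 and Pde4b, with log2 differences of -0.41 and -1.15 with IL-2 and -0.40 and -0.92 with IL-2-REH. Without unstimulated replicate 1, Crem alone was called lower at 4 hr, against 0.297% of all genes called lower with IL-2 and 0.245% after IL-2-REH. With the replicate block in addition, 5 members were called lower with each cytokine, against 6.42% and 6.73% of all genes. They were Crem, Pde3b, Pde4b, Pde4d and Pde7a with IL-2, and Crem, Prkar1a, Pde3b, Pde4b and Pde4d with IL-2-REH.

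IL-2-REH and IL-2 were compared at the same dose and time, for 9 genes at each time. No difference passed in Tregs. With all libraries 0 of 9 members were called at 1.5 hr, where 0.0133% of all genes were, and 0 of 9 at 4 hr, where 0.0267% were. By edgeR and by DESeq2 0 members had an unadjusted p under 0.05 at either time, where 0.994% and 3.73% of all genes had one by edgeR and 0.947% and 3.58% by DESeq2. The fits with a block, without unstimulated replicate 1, or both, also called 0 members, against 0.0133% and 0.0667% of all genes at 1.5 and 4 hr with the block, 0.0323% and 0.071% without that library, and 0.0968% and 0.549% with both changes. The intervals below are from fits with no replicate term, so spread that same-numbered libraries shared is left in them. In these comparisons the deviations of same-numbered libraries correlated at 0.852 to 0.893 at 1.5 hr and 0.45 to 0.761 at 4 hr. Intervals with the replicate block are not given here, so those below do not show the smallest difference these libraries could tell apart. In the fit without unstimulated replicate 1 the log2 difference of Crem, IL-2-REH minus IL-2, was -0.10 at 1.5 hr (95% interval -0.43 to 0.23) and -0.07 at 4 hr (-0.40 to 0.26), so a difference in either direction of more than 0.43 lay outside both. With all libraries the intervals of Crem ran from -2.07 to 1.87 and from -2.04 to 1.90. They rest on 1 spread over all groups, including that of the unstimulated libraries, which are not compared here. For Pde4a the differences were 0.31 (-0.17 to 0.79) and 0.41 (-0.08 to 0.90), and for Pde4d 0.15 (-0.26 to 0.56) and 0.18 (-0.23 to 0.59). For Pde4b they were -0.02 (-0.86 to 0.81) and 0.20 (-0.63 to 1.03), and for Pde7a 0.08 (-0.59 to 0.74) and 0.36 (-0.30 to 1.03). Adjusted p over all genes was 0.994 or above for each member in that fit.

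In CD8+ T cells the same pairs were single libraries, so the values carry counting error and no replicate error, and no test was made. Crem with IL-2-REH was at 0.711 of its IL-2 level at 1.5 hr (95% exact binomial interval 0.679 to 0.745) and at 0.505 at 4 hr (0.467 to 0.546). Pde7a was at 2.13 times its IL-2 level with IL-2-REH at 4 hr (2.07 to 2.20) and Pde4d at 1.82 times (1.76 to 1.89). On the log2 scale of RPKM + 1, which understates the change of genes at low levels, the 4 hr CD8+ differences (IL-2-REH minus IL-2) were -0.87 for Crem and 0.61, 0.71, 0.80 and 1.04 for Pde3b, Pde4b, Pde4d and Pde7a. At 1.5 hr they were -0.47 for Crem and 0.23, 0.04, 0.28 and 0.52 for those phosphodiesterases. The CD8+ library given IL-2-REH thus held less Crem and more Pde3b, Pde4d and Pde7a than the one given IL-2 at both times. Pde4b was higher at 4 hr, while at 1.5 hr its ratio was 1.03 with a counting interval of 0.9995 to 1.058. Of the other members at 4 hr, the log2 difference was 0.58 for Creb1, 0.09 for Pde4a, -0.08 for Prkar1a and -0.21 for Atf1. In Tregs the 3 same-numbered pairs at 4 hr gave both signs for Crem and for Pde3b and were positive for Pde4b, Pde4d and Pde7a.

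**Figure D5:**
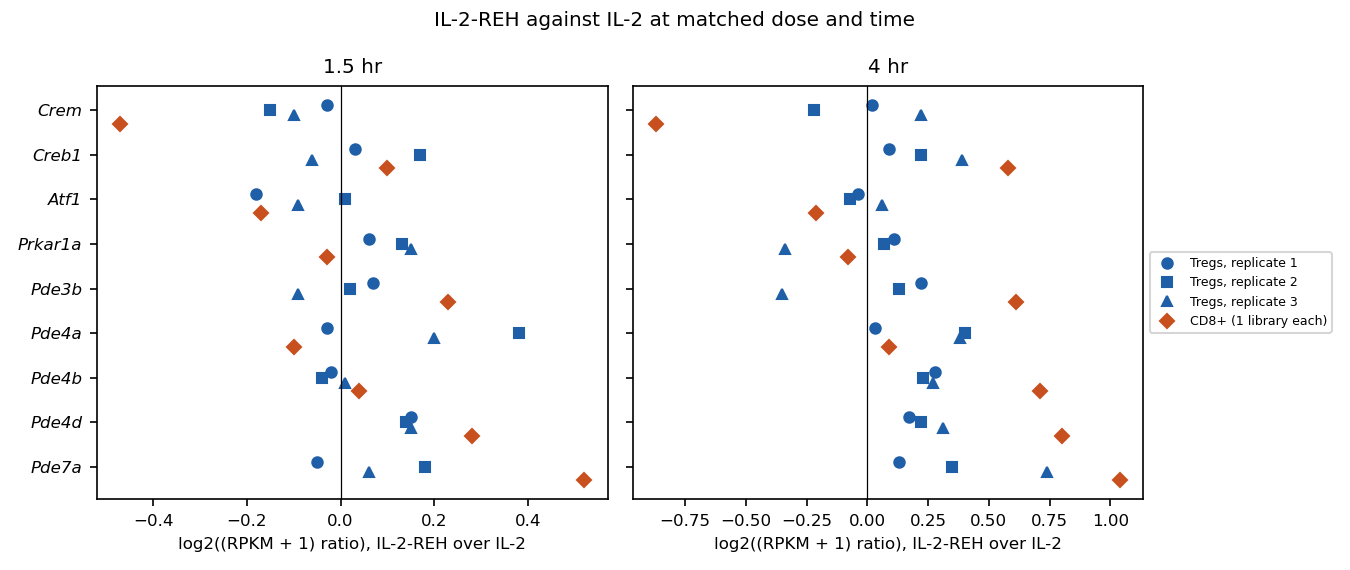
Log2 ratio of RPKM + 1 with IL-2-REH over IL-2 at 1.5 and 4 hr for the 9 genes, with 1 symbol per same-numbered Treg pair and a diamond for the CD8+ libraries. Crem in CD8+ T cells is at -0.47 and -0.87, below its Treg pairs, and Pde7a at 0.52 and 1.04, above its Treg pairs.

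Over unstimulated CD8+ T cells, and counting as past the fold a log2 ratio of RPKM + 1 beyond 1, 8 of the 9 members had a mean of at least 1 RPKM, Pde4a being the exception. With IL-2 at 1.5 hr 3 of them were higher past the fold (Crem 3.11, Pde3b 1.11 and Pde4d 1.05), where 2.81% of 10021 genes were. With IL-2-REH at 1.5 hr the same 3 were (Crem 2.64, Pde3b 1.33 and Pde4d 1.33), where 2.46% of genes were. The rise of Crem at 1.5 hr is what drew attention to these genes. Its part in both counts was thus fixed by the choice, and the counts are descriptions. With IL-2 at 4 hr Crem alone remained past it (1.89), where 1.31% of genes were, and with IL-2-REH at 4 hr Crem (1.02) and Pde3b (1.37) were, where 1.78% were. No member was lower past the fold over unstimulated cells, where 4.43% and 3.4% of genes were with IL-2 at 1.5 and 4 hr and 6.11% and 4.33% with IL-2-REH. The median log2 ratio of all genes was furthest from 0, at -0.12, for IL-2-REH at 1.5 hr. From 1.5 to 4 hr Crem fell by 1.23 and Pde4d by 1.08 with IL-2, where 1.37% of genes were lower past the fold and 0.629% higher, and Crem fell by 1.62 with IL-2-REH, where 0.838% were lower and 1.05% higher. IL-2-REH against IL-2 put no member past the fold at 1.5 hr, where 0.0599% of genes were higher and 0.808% lower, and Pde7a alone at 4 hr, where 0.549% were higher and 1.68% lower. After centring on the median of all genes Pde7a was no longer past it. As RPKM ratios, Crem was 12.3 times its unstimulated level with IL-2 (95% exact binomial interval 10.97 to 13.74) and 8.72 times with IL-2-REH (7.79 to 9.80) at 1.5 hr, and 4.97 times (4.422 to 5.603) and 2.51 times (2.21 to 2.85) at 4 hr.

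The 2 cell types held these genes at different levels. They differed in mouse strain and isolation as well, which cannot be told apart from cell type, and with 1 CD8+ library per condition no test was made. Crem was lower in the CD8+ library than in all 3 Treg libraries in each of the 5 conditions, with a Treg median 3.47-fold higher unstimulated, 7.33-fold and 9.26-fold higher at 1.5 hr with IL-2 and IL-2-REH, and 9.39-fold and 18.3-fold higher at 4 hr. Pde4a was lower in CD8+ T cells in each condition too, by 3.56-fold unstimulated and by 2.34-fold to 6.08-fold when stimulated. Pde3b ran the other way, with a CD8+ level above all 3 Treg libraries in each condition, at 10.5 times the Treg median unstimulated and at 7.49 to 24.5 times when stimulated. Pde7a was above all 3 in each condition as well, at 1.73 to 3.36 times the Treg median. Pde4b lay within the Treg range throughout, Pde4d below it in the 4 stimulated conditions and Prkar1a below it in all but IL-2 at 1.5 hr. Such positions were common among all 10458 genes compared. In the order unstimulated, IL-2 1.5 hr, IL-2-REH 1.5 hr, IL-2 4 hr and IL-2-REH 4 hr, 20.5%, 29.8%, 24.4%, 22.8% and 23.6% of them were above all 3 Treg libraries, and 35.4%, 32.7%, 39.7%, 33.6% and 40.5% below.

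The other genes of the cAMP pathway were taken as 7 lists. With all Treg libraries few of their members passed edgeR's test. Akap13, an anchor that holds PKA near its targets, rose with IL-2 (log2 1.39, adjusted p = 0.0461 at 1.5 hr and 1.24, adjusted p = 0.0457 at 4 hr). Of the textbook CREB targets, Dusp1, a phosphatase of MAP kinases, fell by 1.60 with IL-2 at 1.5 hr (adjusted p = 0.0447), Fos, Junb and Dusp1 fell by 2.66, 1.46 and 2.45 with IL-2 at 4 hr, and Junb and Dusp1 fell with IL-2-REH at 4 hr. No other listed gene passed over unstimulated Tregs in that fit. With the replicate block and all libraries, CREB targets called numbered 2, 6, 0 and 5, in the order given next. Of all genes 1.83%, 6.94%, 0.213% and 3.03% were called in that fit. The other calls here are from the fit without unstimulated replicate 1, in the order IL-2 1.5 hr, IL-2 4 hr, IL-2-REH 1.5 hr and IL-2-REH 4 hr. Adding the replicate block to this fit enlarged several of these counts, for the CREB targets from 2, 4, 3 and 3 to 6, 6, 6 and 8 genes called. With the block 4169, 3248, 3935 and 2587 of 15494 genes were called in the same order. Without the block 7.09%, 4.28%, 6.95% and 3.3% of all genes were called higher. The shares called lower are not given here, so nothing about a list is read from its lower calls.

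Enzymes that make and end cAMP came first. Of 19 other phosphodiesterase genes 14 were tested, and Pde8a, a cAMP-specific phosphodiesterase, was the 1 gene that rose in each comparison (log2 1.48, adjusted p = 0.00728 with IL-2 at 1.5 hr), while Pde11a fell with IL-2-REH at 4 hr. With all libraries the values of Pde8a were 0.50, 0.29, 0.67 and 0.39 (adjusted p from 0.569 to 0.773). Pde8a stood at 12.7, 3.85 and 3.81 RPKM in unstimulated Tregs, with replicate 1 again apart, and at 3.99 RPKM in unstimulated CD8+ T cells against 12.2 and 11.3 RPKM at 1.5 hr with IL-2 and IL-2-REH. Of 12 genes of adenylyl cyclases and stimulatory G proteins 9 were tested, and higher calls numbered 1, 2, 1 and 1 and lower calls 1 each. Adcy7, a cyclase abundant in blood cells, fell by 1.75, 1.55, 1.71 and 1.61 on the log2 scale (adjusted p = 0.00197 in the first), and with all libraries its values were -1.35, -1.14, -1.30 and -1.20 (adjusted p from 0.170 to 0.388). Adcy7 stood at 8.59, 45.7 and 33.4 RPKM in unstimulated Tregs and at 8.01 to 14.2 RPKM in the stimulated ones, and went from 58.5 to 21.1 and 24.0 RPKM in CD8+ T cells at 1.5 hr with IL-2 and IL-2-REH. Its r with Crem over the 20 libraries was -0.967, next to the lowest of all genes, As3mt at -0.970. Gnas, which encodes the stimulatory G protein, rose in all 4 comparisons, by 0.57 to 0.69, and with all libraries was 0.33 to 0.46 higher (adjusted p from 0.230 to 0.452).

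Receptors and effectors followed. Of 10 genes of receptors that raise cAMP 8 were tested, and 2, 1, 1 and 1 rose and none fell. Adora2a, a receptor through which extracellular adenosine raises cAMP in T cells, rose in each (1.94, 1.24, 2.17 and 1.29, adjusted p = 0.000158 in the first). With all libraries its values were 0.65, -0.05, 0.87 and 0.00 (adjusted p from 0.50 to 0.998). Adora2a stood at 63.5, 14.9 and 13.3 RPKM in unstimulated Tregs. Each stimulated CD8+ library held less than the 6.54 RPKM of the unstimulated one, at 4.25 and 3.55 RPKM after 1.5 hr and 4.16 and 5.36 RPKM after 4 hr of IL-2 and of IL-2-REH, which was the other direction from the Treg fit without unstimulated replicate 1. That difference between the cell types was not tested. Of 10 genes of other PKA subunits, PKA inhibitors and EPAC, 9 were tested, with 1 higher call in each comparison, Rapgef3, which encodes the cAMP sensor EPAC1 (1.36, 2.29, 1.73 and 2.05; with all libraries 0.21, 1.14, 0.58 and 0.90, adjusted p from 0.228 to 0.901), and 2, 0, 2 and 1 lower calls among Prkar1b, Prkar2b and Prkacb. Of 12 anchors 11 were tested and 2, 1, 1 and 0 rose. Of 5 CREB coactivators all were tested and 1 passed, Crtc3, which fell by 0.51 with IL-2-REH at 4 hr.

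Of 15 textbook CREB targets 14 were tested. Higher calls numbered 1, 0, 3 and 0 and lower calls 1, 4, 0 and 3, and the list's median was 0.17, -0.75, 0.45 and -0.47 beside 0.03, 0.05, 0.04 and 0.06 over all genes. Those that rose at 1.5 hr were Nr4a3, an orphan nuclear receptor gene (4.56 for IL-2, 4.92 for IL-2-REH, and 1.82 and 2.17 with all libraries, adjusted p = 0.486 and 0.470), and, called under IL-2-REH, Nr4a2 (3.39) and Rgs2 (1.28). Nr4a3 stood at 222, 16.4 and 12.8 RPKM in unstimulated Tregs, so replicate 1 was apart there too. Those that fell at 4 hr with IL-2 were Fos, Junb, Egr1 and Dusp1, all early-response genes. Dusp1 stood at 221, 214 and 315 RPKM in unstimulated Tregs, where replicate 1 was not apart. In CD8+ T cells, of 12 targets that passed the filter, 1 was higher and 8 lower past the fold at 1.5 hr with either cytokine, and 0 higher and 10 lower at 4 hr with either. No listed pathway gene was called between the cytokines or between the times in Tregs in this fit. With the replicate block as well, Ptgir was called higher with IL-2-REH than IL-2 at 1.5 hr and Akap1 and Akap13 lower at 4 hr, and genes of most lists were called between 1.5 and 4 hr. Of the CREB targets 9 fell with IL-2 and 11 after IL-2-REH, where 6.42% and 6.73% of all genes were called lower. Of those targets 0 rose, and the list medians were -1.04 and -1.23 beside 0.03 over all genes for either. Other listed genes rose with both cytokines, namely Pde5a, Pde6d, Adcy6, Prkaca, Prkar1b and Vipr1, and Rapgef3 was called higher with IL-2. Adora2a, Ptger4 and Akap2 were among those that fell with both, and Akap1 and Crebbp were called lower after IL-2-REH.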

How the data were processed

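The 9 genes, the pathway lists and the tests were chosen with earlier results of these data known, so no p-value here is independent evidence for the choice. The rule for named genes took all 9 members, and listed genes that passed the test in Tregs or the fold in CD8+ T cells. The authors deposited, for each of 20 libraries, read counts and RPKM per RefSeq transcript (31682 transcripts) from uniquely mapped 50 bp single-end reads, aligned to GRCm38 with TopHat2 2.1.1 and Bowtie2 2.2.6, with SAMtools 0.1.8 and bedtools 2.25.0, per the labels. RPKM as deposited by the authors divides counts by transcript length and library reads. Use of strand in counting is not given in the sources used here.

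Each gene was taken as its transcript with most reads over the 20 libraries. Treg counts were tested with edgeR 4.0.16 in R 4.3.3 (TMM, filterByExpr, quasi-likelihood, 1 mean per group over all 15 libraries, called at adjusted p under 0.05), and with DESeq2 1.42.0 as an alternative. Other alternatives were RLE scaling, no count filter, a replicate block and leaving out libraries. Leaving out unstimulated Treg replicate 1 alone, with and without the block, was added after the data were seen. The scripts were tested on simulated counts. Samples with the same replicate number deviated together in each comparison (r across genes 0.125 to 0.893 over 30 pairs, against -0.679 to 0.143 over 60 pairs of different numbers), so the numbers were taken to pair the samples, from the data and not from a stated pairing. Deviations from a group mean cancel within the group, so a positive r for equal numbers by itself lowers r for different numbers. The second range is therefore no separate evidence of pairing. CD8+ values were compared as log2 ratios of RPKM + 1 for genes with a mean of at least 1 RPKM, with 95% exact binomial intervals that cover counting error only. Promoter windows came from RefSeq (GRCm38.p6), and gene positions from RefSeq and GENCODE M21 on the same build. The other steps used pandas 2.3.3, scipy 1.17.1, numpy 2.4.6 and matplotlib 3.10.9 in Python 3.11.15.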

Additional observations from a re-analysis of the deposited data

Results flagged for a closer look

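In 4 instances the CD8+ log2 ratio had the opposite sign to all 3 same-numbered Treg pairs. None of these differences was tested, and each CD8+ value is small. Creb1 from 1.5 to 4 hr of IL-2 was 0.12 in CD8+ T cells and -0.32, -0.00 and -0.85 in Tregs. Atf1 with IL-2 at 4 hr over unstimulated was 0.04 in CD8+ T cells and -0.13, -0.23 and -0.61 in Tregs. Prkar1a with IL-2-REH against IL-2 at 1.5 hr was -0.03 in CD8+ T cells and 0.06, 0.13 and 0.15 in Tregs. Pde3b from 1.5 to 4 hr of IL-2-REH was 0.04 in CD8+ T cells and -0.46, -0.15 and -1.07 in Tregs.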

How the results depend on the processing

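The counts of calls in Tregs turned on the unstimulated group. In the order IL-2 1.5 hr, IL-2 4 hr, IL-2-REH 1.5 hr and IL-2-REH 4 hr over unstimulated, IL-2-REH against IL-2 at 1.5 and 4 hr, and 4 against 1.5 hr of IL-2 and of IL-2-REH, edgeR called 128, 339, 14, 47, 2, 4, 0 and 0 of all genes. DESeq2 called 553, 1028, 109, 582, 14, 58, 365 and 253, and the replicate block 275, 1040, 32, 454, 2, 10, 58 and 6. RLE scaling gave 4 and no filter 3 genes between the times of IL-2. With the block and without unstimulated replicate 1 the numbers were 4169, 3248, 3935, 2587, 15, 85, 1801 and 1773, and 7, 7, 7, 7, 0, 0, 5 and 5 of the 9 members. Leaving out libraries moved them from 0 to 2509, 3 to 1938, 0 to 2269, 0 to 1545, 0 to 5, 0 to 11, 0 to 625 and 0 to 574 genes, and members from 0 to 7, 0 to 4, 0 to 6 and 0 to 3 over unstimulated and 0 to 2 and 0 to 1 between times. Over these fits the log2 fold changes that changed sign ran, with IL-2 at 1.5 hr, from -0.29 to 0.04 for Creb1 and -0.24 to 1.55 for Pde4a. With IL-2 at 4 hr they ran from -0.47 to 3.86 for Crem, -0.11 to 0.69 for Prkar1a, -0.67 to 1.03 for Pde4a, -0.49 to 0.63 for Pde4b, -0.30 to 1.10 for Pde4d and -0.44 to 0.64 for Pde7a, and the block without unstimulated replicate 1 gave 1.12 for Pde4a and 0.67 for Pde4b. With IL-2-REH at 1.5 hr they ran from -0.24 to 0.09 for Creb1 and -0.06 to 0.15 for Atf1, and at 4 hr from -0.48 to 3.79 for Crem, -0.24 to 0.56 for Prkar1a, -0.08 to 1.14 for Pde3b, -0.36 to 1.59 for Pde4a, -0.30 to 0.83 for Pde4b, -0.15 to 1.31 for Pde4d and -0.07 to 1.12 for Pde7a. IL-2-REH against IL-2 ran from -0.02 to 0.12 for Creb1 and -0.07 to 0.04 for Pde3b at 1.5 hr, and from -0.16 to 0.02 for Crem, -0.21 to 0.03 for Prkar1a and -0.32 to 0.14 for Pde3b at 4 hr. The cause of these changes was not tested. Of the members' Treg values over the alternatives, 725 kept direction and side of the threshold, 77 came to pass it and 54 changed sign. In CD8+ T cells a pseudocount of 0.1 RPKM put 1211, 759, 1363, 1048, 147, 371, 369 and 480 genes past the fold in the same order of comparisons, against 726, 472, 859, 612, 87, 223, 200 and 189, and centring on the median left 0 members past it for IL-2-REH against IL-2 at 4 hr. That pseudocount also moved the CD8+ log2 ratios of Crem over unstimulated to 3.56, 2.26, 3.07 and 1.29, the largest moves among the CD8+ member values over these alternatives. The fewest reads per library lay behind the 5′ Crem transcript (23 to 334) and, among the members, Pde4a (58 to 792). Whether depth limited a member's comparison was not tested.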
